A study of Mus musculus with 12 samples.

Results

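Ronin is the protein of Thap11, a transcription factor of the THAP family, and it was deleted here in embryonic stem cells of the mouse, which are grown from the early embryo and renew themselves in culture. The genes described are Thap11 and 5 relatives, Thap1, Thap2, Thap3, Thap4 and Thap7, chosen as the probe sets to which the platform annotation gives exactly 1 of these symbols. That rule found 13 of 45101 probe sets, with 1 for Thap11, 2 for Thap1, 2 for Thap2, 1 for Thap3, 4 for Thap4 and 3 for Thap7. The brightest probe set of each gene over all 12 arrays was used as the main one, giving 6 of 18194 genes.

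All cells carried the genotype Roninflox/flox, in which both copies of Thap11 are flanked by the sites that Cre recombinase cuts. The knockout cells were CreERT2; Roninflox/flox, and the control cells were Roninflox/flox alone. CreERT2 is a Cre recombinase that becomes active when tamoxifen is present. Both genotypes were given 0.25 µM tamoxifen, and RNA was taken on days 1.5, 3 and 6, with a split of the cultures on day 4. Each of the 6 groups had 2 arrays. CreERT2 was in every knockout array and in no control array, so its effect, any difference between the lines and the loss of Thap11 cannot be told apart. The labels describe the source as an embryonic stem cell line and name no clone. They do not state whether a pair of arrays stands for independent cultures, and the p-values below therefore reflect array-to-array spread, which may be technical.

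THAP proteins share a zinc-binding DNA recognition domain at the start of the chain, related to that of the P element transposase of fruit flies. Ronin works with HCF-1, a large protein that links transcription factors to enzymes acting on chromatin, and in embryonic stem cells it binds a conserved element near the start of many genes of metabolism and protein synthesis. Mouse embryos and embryonic stem cells need it. Several other THAP proteins also bind HCF-1, and the comparisons below ask how fast the Thap11 transcript was lost and whether transcripts of the relatives changed with it.

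Values are RMA intensities on a linear scale, as deposited, and differences are knockout minus control on the log2 scale with the standard error (SE) of the limma fit. Arrays of a group agreed closely, with r from 0.99816 to 0.99856 over the 18194 genes. The 9 stem cell markers, among them Pou5f1, Nanog and Sox2, had a summed intensity of 74200 to 77630 over all arrays. Of them 1, 3 and 2 were called on days 1.5, 3 and 6, where 9.91%, 23.4% and 32.5% of all genes were called, and Klf4 was lower on each day. The summed intensity of 8 fibroblast markers moved with both day and genotype. It was 1771 to 1847 in controls and 868.4 to 882.9 in knockout cells on day 1.5, 616.7 to 650.3 and 926 to 954.1 on day 3, and 2543 to 2756 and 3407 to 3482 on day 6. Acta2 and Tagln made up most of that sum, and on day 6 they rose while Col1a1, Col1a2 and Thy1 fell, with differences of -0.69, -0.60 and -0.82. Col3a1, Postn and Lum stayed between 8.49 and 25.0 in all arrays. The 3 markers of primed cells were all lower on day 1.5, with a sum of 1320 to 1339 in controls and 736.8 to 753.1 in knockout cells. None of these 3 was called on day 3, and on day 6 Fgf5 was higher and Pou3f1 lower. Of 5 primitive endoderm markers, 3 were lower on day 1.5 and 3 on day 6, with sums of 285.4 to 639.6 over all arrays. On day 3 Sox7 was higher and Dab2 lower, at 0.66 and -1.03. Over all genes 3.98%, 10% and 15.3% were called lower on days 1.5, 3 and 6, and 5.93%, 13.3% and 17.2% higher. The part of these markers in the results on THAP genes was not tested.

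Thap11 fell sharply within 1.5 days and went on falling to day 6. Its intensity in the controls was 1262 and 1181 on day 1.5, 1279 and 1290.1 on day 3, and 1305 and 1382 on day 6. In the knockout cells it was 327 and 354 on day 1.5, 110.2 and 92.7 on day 3, and 50.6 and 51.5 on day 6. Every knockout array lay below every control array, and the 3 days of the knockout cells did not overlap with one another either.

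**Figure D1:**
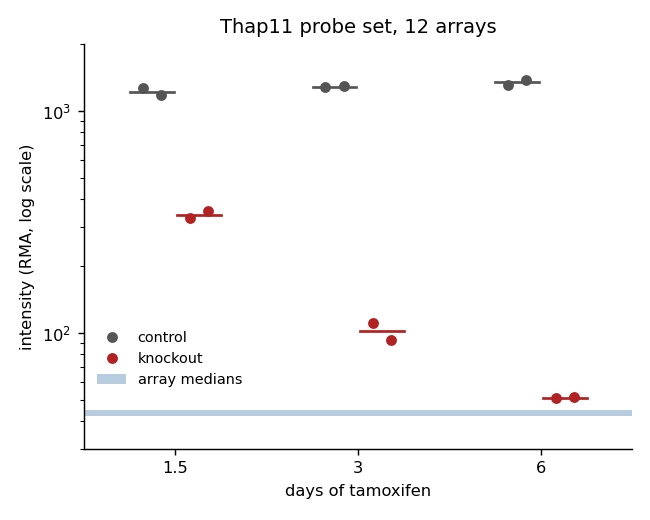
Intensity of the Thap11 probe set (log axis) against days of tamoxifen, evenly spaced and not to scale. Points are single arrays, short lines are group means (2 arrays each), and the blue band spans the array medians, 42.37 to 44.72. Control arrays stay between 1181 and 1382, while knockout arrays step down to 50.6 and 51.5 on day 6.

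As a share of the control mean of the same day, the 2 knockout arrays held 26.8% and 29.0% on day 1.5, 8.58% and 7.22% on day 3, and 3.77% and 3.83% on day 6. The log2 difference from control was -1.84 ± 0.083 (SE, limma adjusted p = 1.2e-05), -3.67 ± 0.083 (1.4e-07) and -4.72 ± 0.083 (1.4e-08). On day 1.5 only Ccnb1ip1 and Tesc fell further among the 18194 genes, and on days 3 and 6 no gene did. In these bulk samples, fewer cells with an intact gene and less transcript per cell cannot be told apart.

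The decline was steeper up to day 3 than after it. If both lines had equal Thap11 at the start, where no array was analysed, the difference between genotypes fell by 1.23 ± 0.056 per day on the log2 scale over the first 1.5 days. It fell by 1.22 ± 0.079 per day from day 1.5 to day 3, and by 0.35 ± 0.039 per day from day 3 to day 6. The later step was still larger than the spread between arrays, at -1.05 ± 0.12 in all (adjusted p = 0.0008 for the difference of the effect, against 16.4% of all genes called in that comparison). Within the knockout cells alone Thap11 fell by 1.75 from day 1.5 to day 3, by 0.98 from day 3 to day 6 and, over both steps, fell by 2.74, where 20.6%, 33.5% and 30.2% of all genes were called. In the controls no change between days passed, with 0.07 from day 1.5 to day 3, 0.06 from day 3 to day 6 and 0.14 from day 1.5 to day 6 (adjusted p from 0.49 to 0.61, with 27.3%, 27.5% and 1.57% of all genes called). On day 6 the knockout intensity stood just above the array median of 42.75 and 43.04. No detection calls were used, so how much of the remaining intensity is transcript and how much is background is unknown. With each array's 10th percentile of intensity subtracted first, the remaining shares were 27.3%, 7.12% and 3.05%. The position of the probes relative to the floxed sequence was not analysed here.

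Of the 6 genes, 2 were called on day 1.5, Thap11 and Thap3, both lower, where 9.91% of all genes were called (3.98% lower). On day 3, 4 were called, 3 lower and 1 higher, with 23.4% of all genes called (10% lower and 13.3% higher). On day 6, 4 were called, 2 lower and 2 higher, with 32.5% of all genes called (15.3% lower and 17.2% higher). These counts include Thap11, whose fall was set by the deletion. Of the 5 relatives, 1 was lower on day 1.5, 2 were lower and 1 higher on day 3, and 1 was lower and 2 higher on day 6. Apart from Thap11, the values lay between -0.50 and 0.44 on the log2 scale. The median difference of the 5 relatives was -0.031, -0.080 and -0.124 on days 1.5, 3 and 6, and that of all genes was 0.003, 0.028 and -0.001. Taken without sign, their median difference was 0.112, 0.339 and 0.271, and that of all genes was 0.101, 0.127 and 0.151. The relatives moved in different directions.

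**Figure D2:**
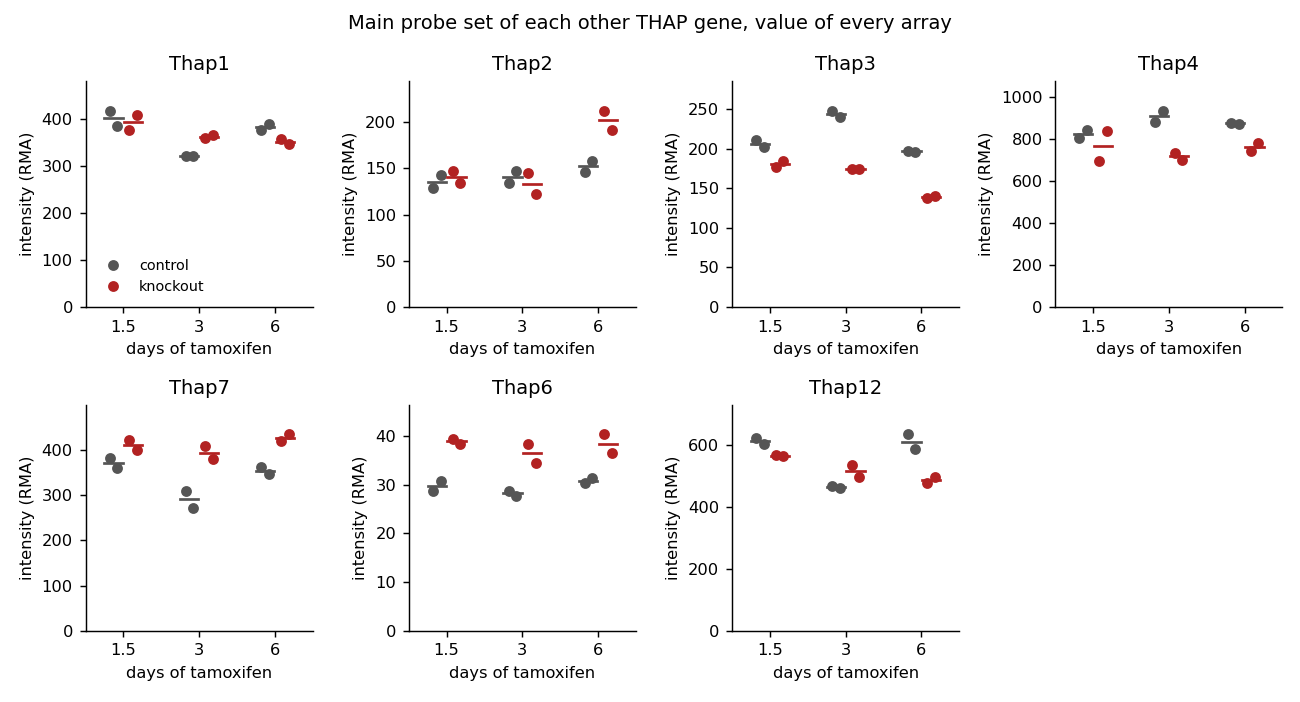
Intensity of the main probe set of 7 THAP genes other than Thap11 in every array, against days of tamoxifen; lines are means of 2 arrays and each vertical axis starts at 0. Thap3 is lower in knockout cells on each day, Thap7 and Thap6 are higher on each day, and Thap1, Thap3, Thap7 and Thap12 shift in the controls of day 3.

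Thap3, whose human counterpart binds HCF-1 and the sugar transferase OGT, was lower in knockout cells than in controls. Its intensity in controls was 211 and 202 on day 1.5, 248 and 240.5 on day 3, and 197 and 196 on day 6. In knockout cells it was 176 and 185, then 174 and 174, then 138 and 139.8. Knockout and control arrays did not overlap on any day, which holds for 53%, 57.2% and 65.1% of all genes on days 1.5, 3 and 6.

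The difference for Thap3 was -0.19 ± 0.050 on day 1.5 (adjusted p = 0.043), -0.49 ± 0.050 on day 3 (adjusted p = 0.00015) and -0.50 ± 0.050 on day 6 (adjusted p = 7.7e-05). The call of day 1.5 was lost in 16 of 22 alternatives, among them each array of that day left out, with adjusted p up to 0.22. The calls of days 3 and 6 held in all alternatives run. The effect was larger on days 3 and 6 than on day 1.5, by -0.30 ± 0.071 and -0.31 ± 0.071 (adjusted p of 0.023 and 0.015, with 15% and 19.3% of all genes called). Those 2 calls were lost in 7 and 5 of 21 alternatives.

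The time course of Thap3 had a part in each genotype. Controls rose by 0.24 from day 1.5 to day 3 and fell by 0.32 from day 3 to day 6. Knockout cells showed no such rise, with -0.05 ± 0.050 to day 3 (95% interval -0.16 to 0.06), and fell by 0.33 from day 3 to day 6. These comparisons share arrays with the differences between genotypes. Set against the controls of days 1.5 and 6 instead, the knockout cells of day 3 differed by -0.21 ± 0.043 (adjusted p = 0.0077), less than the -0.49 against their own controls. Over the 12 arrays Thap3 and Thap11 correlated with r = 0.884, the highest of the 15 pairs among the 6 genes. The points share genotype and day, so this restates the group differences.

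Thap4, whose protein also carries a heme-binding domain like that of nitrobindin, was lower on day 3 by 1 of its 4 probe sets. Its main probe set, whose suffix marks probes shared with other transcripts, read 804 and 842 in controls and 694 and 836 in knockout cells on day 1.5. It read 879.8 and 935 against 735 and 699.6 on day 3, and 877 and 871 against 743 and 779 on day 6. The groups overlapped on day 1.5 and were apart on days 3 and 6, as were those of 57.2% and 65.1% of all genes.

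The differences for Thap4 were -0.11 ± 0.084 (adjusted p = 0.49), -0.34 ± 0.084 (adjusted p = 0.018) and -0.20 ± 0.084 (adjusted p = 0.11). The call of day 3 was lost without control replicate 2, knockout replicate 1 or knockout replicate 2 of that day (-0.30, -0.37 and -0.30, adjusted p of 0.095, 0.054 and 0.095). The mean of all 4 probe sets gave -0.08 (adjusted p = 0.36) on day 3 and, unlike the main one, passed on day 6, at -0.22 ± 0.053 (adjusted p = 0.012). In the fit over all 45101 probe sets, which called 3.27%, 12.6% and 19.5% of them on days 1.5, 3 and 6, the second brightest probe set, 1424052_at, was at -0.07 ± 0.075 on day 3. The dim probe set 1458185_at, at 41.0 to 58.5 over the arrays, did not pass on any day. The dimmest, 1443311_at, read 23.7 to 39.0 and was lower on day 6, by -0.36 ± 0.11, at an adjusted p just within the threshold. On day 6 all 4 probe sets had values below 0, from -0.36 to -0.14.

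Thap7, whose human counterpart binds histone tails and draws the deacetylase HDAC3 to chromatin, was higher in knockout cells. Its main probe set read 383 and 359 in controls and 421 and 399.8 in knockout cells on day 1.5. It read 308 and 272 against 408 and 379 on day 3, and 362 and 346 against 419 and 434 on day 6. Every knockout array exceeded both controls of its day. Groups were apart, in either direction, for 53%, 57.2% and 65.1% of all genes on days 1.5, 3 and 6.

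The difference for Thap7 was 0.15 ± 0.074 on day 1.5 (adjusted p = 0.28), 0.44 ± 0.074 on day 3 (adjusted p = 0.0025) and 0.27 ± 0.074 on day 6 (adjusted p = 0.020), with 5.93%, 13.3% and 17.2% of all genes called higher on those days. Within the knockout cells Thap7 did not pass between any days, at -0.06 from day 1.5 to 3 and 0.12 from day 3 to 6. In controls it fell by 0.36 from day 1.5 to day 3 (adjusted p = 0.0070) and rose by 0.29 from day 3 to day 6 (adjusted p = 0.019). Against the controls of days 1.5 and 6, the knockout cells of day 3 were at 0.12 ± 0.064 (adjusted p = 0.21), so the call of day 3 rests on the controls of that day. The call of day 6 was lost without any single array of day 6, with 0.24 to 0.30 and adjusted p from 0.050 to 0.11.

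A second probe set of Thap7, 1426428_at, moved with the main one over the arrays (r = 0.915, 12 arrays). It was at 0.08, 0.27 and 0.34 on days 1.5, 3 and 6, and passed on days 3 and 6 (adjusted p of 0.040 and 0.010 over all probe sets). The third, 1426429_at, was dim, at 26.9 to 35.8, and did not pass on any day.

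Thap2, a little described member of the family, rose on day 6. Its main probe set read 128 and 143 in controls and 146 and 134 in knockout cells on day 1.5, and 134 and 147 against 144 and 122 on day 3. On day 6 it read 146 and 158 in controls and 212 and 192 in knockout cells. The groups overlapped on the first 2 collection days and were apart on day 6, as were those of 65.1% of all genes.

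The difference for Thap2 was 0.05 ± 0.10, -0.08 ± 0.10 and 0.41 ± 0.10 on days 1.5, 3 and 6 (adjusted p of 0.82, 0.65 and 0.012). Day 6 lost its call without control replicate 1 (0.36, adjusted p = 0.079) or knockout replicate 1 (0.34, adjusted p = 0.087) of that day. Within the knockout cells Thap2 rose by 0.61 ± 0.10 from day 3 to day 6 (adjusted p = 0.0017). In controls the same step was 0.12 ± 0.10 (95% interval -0.11 to 0.34). The effect on day 6 exceeded that on day 3 by 0.49 ± 0.14 (adjusted p = 0.046), a call lost in 17 of 21 alternatives. The other probe set, 1421177_at, had another course. It read 65.5 and 67.0 in controls and 84.2 and 85.3 in knockout cells on day 3, and 87.4 and 95.8 against 106 and 102 on day 6. It was called on day 3, at 0.35 ± 0.080 (adjusted p = 0.019), and not on day 6, at 0.18 ± 0.080 (adjusted p = 0.16). Its controls were at -0.24 from day 1.5 to day 3 (adjusted p = 0.071) and at 0.466 from day 3 to day 6 (adjusted p = 0.0047). Knockout cells were at -0.08 and 0.295 over the same steps (adjusted p of 0.57 and 0.029). Both probe sets read higher in knockout cells on day 6, and only the call of day 6 by the main one and that of day 3 by the other passed.

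**Figure D3:**
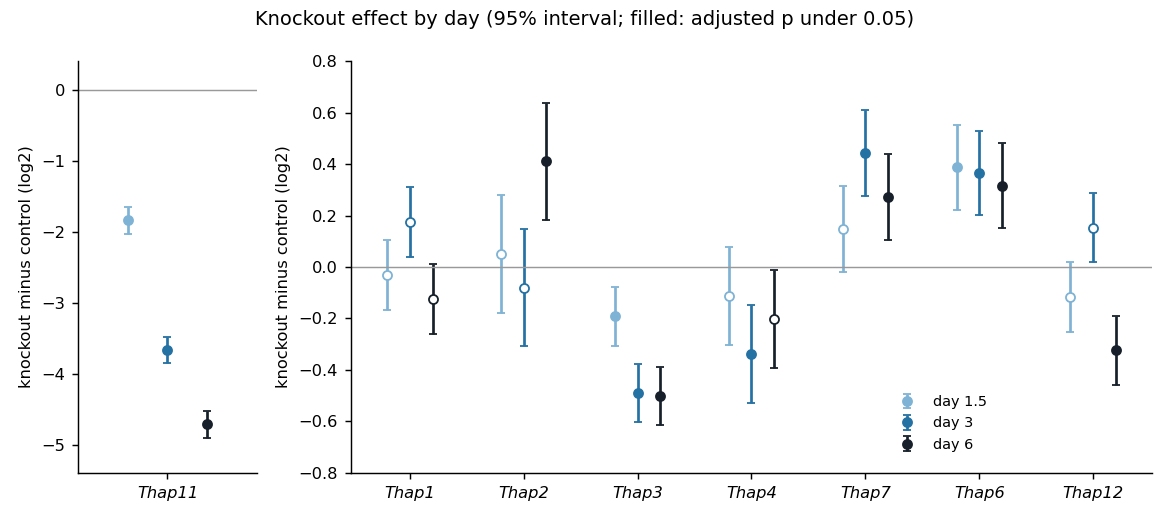
Knockout minus control on the log2 scale by day, with 95% intervals from the limma fit over 18194 genes; filled points have an adjusted p under 0.05. Thap11 falls to -4.72 on the left axis, while the 7 other THAP genes stay between -0.50 and 0.44 on the right axis, which has another scale.

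Thap1, whose human counterpart is the gene of an inherited dystonia and whose protein binds HCF-1, did not pass on any day by its main probe set. That probe set read 419 and 385 in controls and 378 and 409 in knockout cells on day 1.5, 322 and 321 against 359.7 and 366 on day 3, and 378 and 390.4 against 358 and 347 on day 6. The differences were -0.03 ± 0.061, 0.17 ± 0.061 and -0.12 ± 0.061 (adjusted p of 0.82, 0.069 and 0.16). The value of day 3 passed with eBayes trend and robust (adjusted p = 0.042) and with the dimmest genes left out (adjusted p = 0.026). The 95% interval of day 6 ran from -0.26 to 0.01. The controls of day 3 again stood apart, 0.32 below day 1.5 (adjusted p = 0.0044), and against the controls of days 1.5 and 6 the value of day 3 turned to -0.11 ± 0.053 (adjusted p = 0.15). The effect on day 6 lay 0.30 ± 0.086 below that on day 3 (adjusted p = 0.044), a call lost in 14 of 21 alternatives.

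The second probe set of Thap1, 1455003_at, went the other way on day 6. It read 310.1 and 309 in controls and 394 and 392 in knockout cells, a difference of 0.35 ± 0.065 (adjusted p = 0.0049 over all probe sets). On days 1.5 and 3 it was at 0.05 and 0.11 and did not pass. The 2 probe sets correlated with r = 0.255 over the 12 arrays, and the mean of both gave 0.11 ± 0.050 on day 6 (adjusted p = 0.13). The direction of Thap1 on day 6 therefore depends on the probe set.

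**Figure D4:**
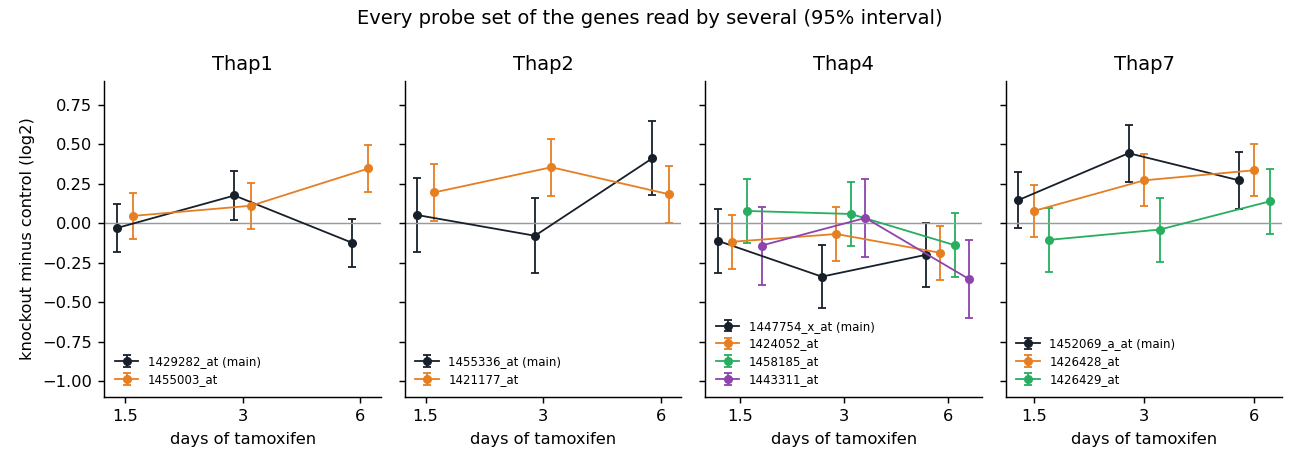
Knockout minus control on the log2 scale for each probe set of Thap1, Thap2, Thap4 and Thap7 against days of tamoxifen, with 95% intervals from the fit over all 45101 probe sets. The probe sets of Thap1 part on day 6, at -0.12 and 0.35, and those of Thap2 part on day 3, at -0.08 and 0.35, while 2 of 3 for Thap7 move together.

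Other THAP genes on the array were looked up by symbol, and Thap6 and Thap12 had probe sets of their own. Thap12, whose human counterpart regulates an inhibitor of the interferon-induced kinase PKR, was lower on day 6 by both of its probe sets. The main one read 636 and 587 in controls and 478 and 498 in knockout cells, a difference of -0.32 ± 0.060 (adjusted p = 0.0027) that held in all 22 alternatives. The other was at -0.28 ± 0.066 (adjusted p = 0.014). On day 3 the main one was at 0.15 ± 0.060 (adjusted p = 0.10), where the controls read 468 and 463, a fall of 0.40 from day 1.5. The other probe set was called higher on day 3, at 0.27 ± 0.066 (adjusted p = 0.027 over all probe sets). Its controls fell by 0.56 from day 1.5 to day 3. By the main one, the effect on day 6 lay 0.48 ± 0.084 below that on day 3 (adjusted p = 0.0060). Thap6 was higher on each day by a dim probe set. It read 28.6 and 30.9 in controls and 39.4 and 38.4 in knockout cells on day 1.5, with differences of 0.39, 0.36 and 0.32 and an SE of 0.072 on days 1.5, 3 and 6. The other probe set of Thap6 was at -0.09, 0.03 and -0.04 and did not pass, and the mean of both did not pass on any day (0.15, 0.20 and 0.14). Thap5, Thap8, Thap9 and Thap10 were not analysed here.

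Transcripts of proteins known to work with THAP factors were listed too. Of 8 listed, 6 were measured, and 0 of 6, 1 of 6 and 1 of 6 were called on days 1.5, 3 and 6, where 9.91%, 23.4% and 32.5% of all genes were called. The called one was Pawr, a pro-apoptotic partner of THAP1, which was lower by 0.26 ± 0.064 on day 3 and by 0.29 ± 0.064 on day 6 (adjusted p of 0.018 and 0.0070). The mean of the probe sets of Pawr gave -0.09 on day 6 (adjusted p = 0.49). Hcfc1, the gene of HCF-1, was at -0.14 ± 0.074, 0.02 ± 0.074 and -0.14 ± 0.074 and did not pass. Hcfc2 was at 0.14, 0.08 and 0.23, Ogt at -0.17, -0.09 and 0.12, Hdac3 at -0.03, 0.06 and 0.04, and Set, a histone chaperone that binds THAP7, at 0.04, 0.04 and -0.12. None of these passed. Zfp143 and Ncor1 were not analysed here. Of 2 targets described for THAP1, Rrm1, a subunit of ribonucleotide reductase, did not pass. Tor1a, the gene of torsin A, was at 0.32 ± 0.053 on day 3 (adjusted p = 0.0027) and at -0.06 (adjusted p = 0.37) against the controls of days 1.5 and 6.

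Neighbours of Thap11 were listed as well, and a link of their changes to the deletion was not tested. The 5 nearest genes on each side by start in the RefSeq gene table were taken, and 9 of 10 were measured. On day 1.5, 3 of 9 were higher and 0 lower, on day 3, 2 were higher and 1 lower, and on day 6, 3 were higher and 0 lower. Over all genes 5.93%, 13.3% and 17.2% were called higher on those days and 3.98%, 10% and 15.3% lower. The median difference of the 9 was 0.213, 0.008 and 0.127, beside 0.003, 0.028 and -0.001 for all genes. Around the other members, 3, 3 and 4 of 8 measured neighbours were higher on those days and 0 were lower. Their median difference was 0.133, 0.209 and 0.157.

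Cenpt, the nearest gene on the left and a part of the inner kinetochore, rose on every day, by 0.50 ± 0.057, 0.43 ± 0.057 and 0.78 ± 0.057 (adjusted p of 0.0011, 0.00064 and 1e-05). Its group mean went from 1396 to 1975 on day 1.5, from 1486 to 2006 on day 3 and from 1531 to 2637 on day 6, and the calls held in all alternatives run. Edc4, an mRNA decapping factor to the right, rose by 0.26, 0.42 and 0.39, of which the value of day 3 was 0.15 (adjusted p = 0.064) against the controls of days 1.5 and 6 and that of day 1.5 was lost in 7 of 22 alternatives. Pskh1, a protein kinase further to the right, rose by 0.57 and 0.51 on days 1.5 and 6 and was at 0.01 ± 0.058 on day 3. Ranbp10, to the left, was lower on day 3, by 0.29 ± 0.076, a call lost without control replicate 2 (-0.17) or knockout replicate 2 (-0.23) of that day.

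**Figure D5:**
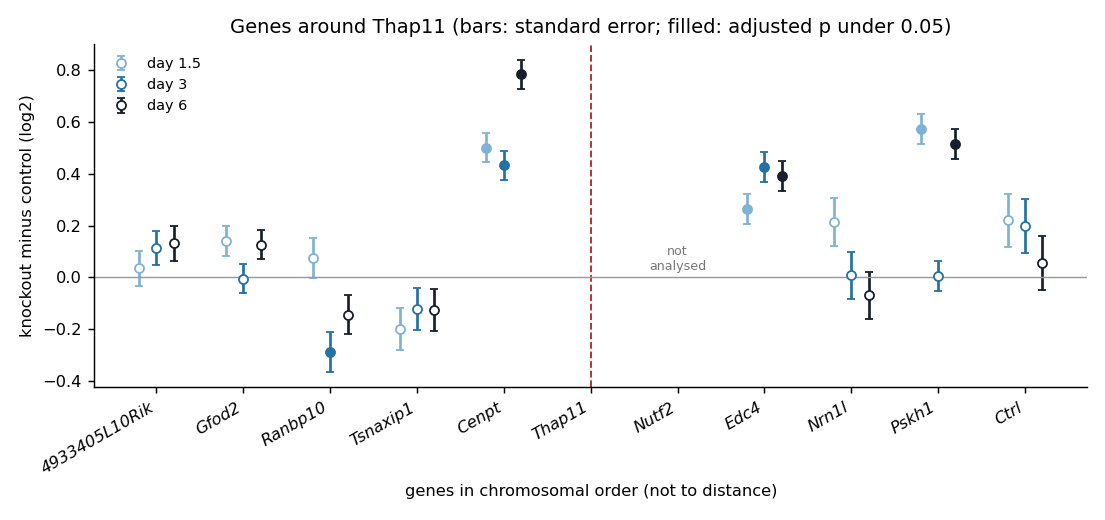
Knockout minus control on the log2 scale for the genes on either side of Thap11, in chromosomal order and not to distance; bars are standard errors, filled points have an adjusted p under 0.05, and the dashed line marks Thap11 itself. Cenpt stands highest on day 6, at 0.78, and Edc4 and Pskh1 are also raised.

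The promoter of Thap11 is shown because Thap11 and Cenpt lie side by side there and both changed. It is the 250 bases before the start of Thap11 at chr8:105854853-105855102 on the plus strand of GRCm38.p6, from RefSeq, 5′ to 3′, with CpG pairs in capitals.
Thap11: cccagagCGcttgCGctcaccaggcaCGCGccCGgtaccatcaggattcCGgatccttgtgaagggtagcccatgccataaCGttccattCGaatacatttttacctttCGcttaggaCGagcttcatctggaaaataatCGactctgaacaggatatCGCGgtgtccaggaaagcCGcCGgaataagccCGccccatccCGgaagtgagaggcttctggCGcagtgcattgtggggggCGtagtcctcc
It holds 19 CpG pairs, where the median promoter holds 6. The span of Cenpt in RefSeq reaches base 105855086, inside this stretch. The Cenpt promoter searched below belongs to another start, at chr8:105851959-105852258.

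Promoters of the relatives that were called are shown for comparison, each as the 100 bases before the start, on the minus strand of GRCm38.p6, from RefSeq, with CpG pairs in capitals. They lie at chr10:115384436-115384535 for Thap2, chr4:151988987-151989086 for Thap3, chr1:93754839-93754938 and chr1:93731927-93732026 for the 2 starts of Thap4, and chr16:17531053-17531152 for Thap7. Thap1 had no entry that matched.
Thap2: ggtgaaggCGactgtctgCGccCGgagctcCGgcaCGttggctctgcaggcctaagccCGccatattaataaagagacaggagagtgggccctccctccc
Thap3: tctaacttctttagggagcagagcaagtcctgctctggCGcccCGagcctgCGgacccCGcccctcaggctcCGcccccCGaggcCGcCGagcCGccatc
Thap4: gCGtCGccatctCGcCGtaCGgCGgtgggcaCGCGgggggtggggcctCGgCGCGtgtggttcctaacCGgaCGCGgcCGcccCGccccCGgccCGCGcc
Thap4, second start: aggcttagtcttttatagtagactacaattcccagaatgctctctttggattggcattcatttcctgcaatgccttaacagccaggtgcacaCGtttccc
Thap7: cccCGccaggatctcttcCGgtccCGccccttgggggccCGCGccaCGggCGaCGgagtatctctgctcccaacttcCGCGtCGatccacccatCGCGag
In these 100 bases Thap2 has 6 CpG pairs, Thap3 has 9, Thap4 has 19 and 1 at its 2 starts, and Thap7 has 13. Over the 250 bases used for Thap11 and the median promoter, Thap2 has 13, Thap3 has 12, Thap4 has 45 and 1, and Thap7 has 24. A relation of these counts to the changes in expression was not tested.

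Both strands of each promoter, 250 bases before to 50 after the start, were searched for the element described for Ronin with HCF-1. Of 32851 promoters, 595 hold it, or 1.81%. Among the 6 promoters of the 5 members in the table it was found in 1, the second start of Thap4, and not in these windows of Thap11, Thap2, Thap3 or Thap7. Among the neighbours it was found in promoters of Cenpt and Nutf2 next to Thap11, Zfc3h1 next to Thap2 and Phf13 next to Thap3. It was not found in those of 4933405L10Rik, Gfod2, Tsnaxip1, Edc4, Nrn1l, Pskh1, Ctrl, Gm31727, Bok, Atg4b, Lztr1 or Lrrc74b. Ranbp10, Rnf170, Dnajc11 and Gm19006 had no entry that matched and were not searched. The matches are shown with the element in capitals, 5′ to 3′ along the gene, at chr1:93731985-93732014 (minus), chr8:105852076-105852105 (minus), chr8:105860529-105860558 (plus), chr10:115384805-115384834 (plus) and chr4:151996232-151996261 (minus) of GRCm38.p6, in the order given.
Thap4: ttatagtagACTACAATTCCCagaatgctc
Cenpt: agctgttggACTACAGTTCCCgtggggcca
Nutf2: tggcattctGGGAAATGTAGTtctagctaa
Zfc3h1: caagaggagACTACAAATCCCagccagcac
Phf13: tcaacccggACTACATTTCCCgacgaacct
In Nutf2 the element reads on the opposite strand. Of the genes with it, Cenpt and Phf13 rose, and Thap4 was lower on day 3 by 1 of its 4 probe sets. Zfc3h1 did not pass on any day, and Nutf2 was not analysed here. A relation of the element to these changes was not tested.

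The element described for THAP1, TNNGGGCA, is held by 4571 of 32851 promoters on either strand, or 13.9%. Of the members it was found in Thap3 alone, at the start of the gene, at chr4:151988963-151988992 on the minus strand of GRCm38.p6, with the match in capitals.
Thap3: gccatctttttTAGGGGCAgtgggcccatc
A match of this kind describes the letters and shows no binding.

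The genes whose pattern over the 12 arrays was most like that of Thap11, by Pearson r of log2 intensity, all fell stepwise. Marchf5, a ubiquitin ligase of the outer mitochondrial membrane, came first (r = 0.995), with differences of -0.48, -1.24 and -1.70 on days 1.5, 3 and 6. Zfp449, a zinc finger gene, followed at r = 0.9893 and fell by 0.55, 0.89 and 1.11. The glutamine transporter gene Slc1a5 (r = 0.9879), Plekhb1 (r = 0.9873), Bivm (r = 0.9872), the interferon-induced gene Ifit2 (r = 0.9868), the cochaperone gene Dnajc12 (r = 0.9853) and the ubiquitin-conjugating enzyme gene Ube2d1 (r = 0.9827) completed the 8. Each of the 8 was called lower on each day, where 3.98%, 10% and 15.3% of all genes were called lower. They were picked for likeness to Thap11 over these same arrays, so their calls are no separate result. The call of Ifit2 on day 1.5 was lost in 4 of 22 alternatives. On day 6 their differences ran from -1.11 for Zfp449 to -3.20 for Ube2d1, smaller than that of Thap11. The arrays share genotype and day, so these values describe likeness in time and nothing else.

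For the relatives, the genes most alike were Coro2b, an actin regulator, Prelid2 and Eif4b, a translation initiation factor, for Thap3 (r = 0.9872, 0.9847 and 0.9802), and D130020L05Rik, Rsbn1 and Bloc1s3 for Thap4 (r = 0.9309, 0.9215 and 0.8987). They were Top3b, a topoisomerase, Ptpa and Mob2 for Thap7 (r = 0.9731, 0.9726 and 0.9701), and Ppp1r12a, a subunit of myosin phosphatase, Fndc3a and Tec for Thap2 (r = 0.9753, 0.9536 and 0.9529). Among the members themselves, Thap3 and Thap7 ran opposite (r = -0.853), as did Thap4 and Thap7 (r = -0.775) and Thap11 and Thap7 (r = -0.706). Thap1 had no r above 0.485 with any other member. All of these rest on 12 arrays that share genotype and day.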

How the data were processed

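RNA of 12 mouse embryonic stem cell samples was hybridised to Affymetrix Mouse Genome 430 2.0 arrays. The authors deposited intensities per probe set made with RMA, which corrects background, puts arrays on a common distribution and summarises probes, per the submitters' processing notes; its version is not given in the sources used here. Intensities between 5.511 and 34993 show a linear scale, so log2 was taken. Array medians ran from 42.37 to 44.72, and the number of arrays limits the precision.

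Of 45101 probe sets, 34958 had 1 gene symbol, 932 several and 9211 none. The brightest of each gene gave 18194 genes, with no filter on dim ones. limma 3.58.1 in R 4.3.3 fitted 1 mean per group over all arrays (6 residual and 3.04 prior degrees of freedom), with Benjamini-Hochberg adjustment called at 0.05. Each probe set was also fitted among all 45101. The fit was tested on simulated data. Named genes were the members, other THAP genes, THAP partners and targets, neighbours, and the 8 genes most correlated with Thap11 or 3 with each other called member. The members and lists were chosen with earlier results of these data known. Alternatives were the replicate number as a block, the arrays of the day only, eBayes with trend and robust, array weights, dim genes left out, the mean of probe sets, all probe sets, 2 scalings, other controls for day 3 and each array left out. Promoters came from RefSeq (GRCm38.p6), with 5 of 6 members matched. Plots were drawn with matplotlib 3.10.9.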

Additional observations from a re-analysis of the deposited data

Results flagged for a closer look

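The effect of the knockout differed between days for some of the 6 genes, by a test of the difference itself in the limma fit. For day 3 minus 1.5, 2 of the 6 were called lower, where 15% of all genes were called either way. For day 6 minus 3, 1 was called higher and 2 lower, where 16.4% of all genes were called. For day 6 minus 1.5, 2 were called lower, where 19.3% of all genes were called. Thap11 was among the lower ones each time. For Thap11 the log2 difference moved by -1.83 from day 1.5 to day 3, by -1.05 from day 3 to day 6 and by -2.87 from day 1.5 to day 6. For Thap3 it moved by -0.30 from day 1.5 to day 3 and by -0.31 from day 1.5 to day 6. From day 3 to day 6 it moved by -0.30 for Thap1 and by 0.49 for Thap2, by their main probe sets. These main values had adjusted p of 0.044 and 0.046. They lost their calls in 14 and 17 of 21 alternatives. The other probe set of each went the other way, at 0.24 for Thap1 and -0.17 for Thap2, and did not pass. The mean of probe sets gave -0.031 for Thap1 and 0.16 for Thap2 (adjusted p of 0.83 and 0.37). The controls of day 3, against which the main values are set, stood apart for Thap1.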

How the results depend on the processing

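Thap11 kept its direction and its call on each day in all alternatives, from -1.90 to -1.79 on day 1.5, -3.79 to -3.54 on day 3 and -4.76 to -4.68 on day 6. Its share remaining on day 6 went from 3.8% to 3.05% with the 10th percentile of each array subtracted. Members called on day 1.5 went from 2 to 1 with the replicate block over all arrays or within a day, with the arrays of that day only, with eBayes trend and robust together, with all probe sets and with median centring. With an array left out they ranged from 1 to 2 on day 1.5, 3 to 4 on day 3 and 2 to 5 on day 6 (2 when replicate 1 of either genotype on day 6 was left out). Genes called on day 1.5 went from 1803 to 863 with the replicate block within a day, 455 with the arrays of the day only and 2756 with eBayes trend and robust together, and ranged from 714 to 1946 with an array left out (833 and 792 without control replicate 1 or 2 of day 1.5, 750 and 714 without knockout replicate 1 or 2). On day 3 they went from 4250 to 2506 with the arrays of the day only and ranged from 2727, without knockout replicate 1 of day 3, to 4070. On day 6 they ranged from 4314 to 6031. The cause was not tested. Deviations of same-numbered arrays correlated from -0.057 to 0.028 within a day. Between days the highest value was 0.173, for the controls of days 1.5 and 3. The labels do not say whether replicate numbers pair the samples, and these correlations cannot settle it. With the replicate block over all arrays, Thap1 and Thap2 lost the difference between days 6 and 3 (adjusted p of 0.062 and 0.064), and Thap3 its call on day 1.5 (0.061). Calls were gained for Thap1 on day 3 in 2 alternatives and for Thap4 on day 6 in 4.

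Several values turned sign, most of them not called. With the mean of probe sets, Thap1 went to 0.008 on day 1.5 and 0.11 on day 6 and Thap2 to 0.14 on day 3. The differences between days then went to 0.015 for Thap2 (3 minus 1.5), to -0.14 for Thap4 and 0.024 for Thap7 (6 minus 3), and to 0.10 for Thap1 (6 minus 1.5). Fndc3a went to -0.042 on day 6, having been called. With an array left out, the sign turned on day 1.5 for Thap1 (-0.091 to 0.029; above 0 without control replicate 1, 0.029, or knockout replicate 1, 0.026), Thap2 (-0.025 to 0.127; below 0 without the same arrays, -0.025 and -0.012) and Thap4 (-0.246 to 0.023, without knockout replicate 1). It turned on day 3 for Thap2 (-0.203 to 0.043, without knockout replicate 2), and between days for Thap3 (6 minus 3, -0.034 to 0.011, without control replicate 2 of day 3) and Thap4 (6 minus 1.5, -0.224 to 0.046, without knockout replicate 2 of day 1.5). Against the controls of days 1.5 and 6, Thap1 went to -0.11, Tor1a to -0.062, Acta2 to -1.78, Tagln to -1.24 and Sox7 to -0.56 on day 3. For named genes outside the set, 1992 of 2224 values kept direction and call, 227 lost the call and 5 reversed.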

Other observations

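Neighbours of the other THAP genes also changed. Lztr1, an adaptor of a ubiquitin ligase that acts on RAS proteins and the nearest gene on the left of Thap7, rose by 0.32 ± 0.078, 0.55 ± 0.078 and 0.86 ± 0.078 on days 1.5, 3 and 6 (limma adjusted p of 0.034, 0.00096 and 4.1e-05), from a group mean of 616.1 to 1118 on day 6. Its call of day 1.5 was lost in 9 of 22 alternatives, and those of days 3 and 6 held in all. Rnf170, a ubiquitin ligase of the endoplasmic reticulum beside Thap1, rose by 0.36 on day 1.5 and 0.53 on day 6 and was at 0.19 on day 3 (adjusted p = 0.060). Phf13, a chromatin protein beside Thap3, rose by 0.51, 0.28 and 0.37 while Thap3 was lower. Its call of day 3 was lost in 8 of 23 alternatives, and against the controls of days 1.5 and 6 that value was 0.59. Atg4b, a protease of autophagy beside Thap4, rose by 0.24 on day 3 and 0.27 on day 6, and by the mean of its probe sets it was at 0.11 on both days (adjusted p of 0.24 and 0.19). Against the controls of days 1.5 and 6, Atg4b on day 3 was at 0.08 (adjusted p = 0.28). Of the 8 measured neighbours, 3, 3 and 4 were higher on days 1.5, 3 and 6 and 0 were lower, while 5.93%, 13.3% and 17.2% of all genes were called higher. Zfc3h1, Dnajc11, Bok and Lrrc74b did not pass on any day.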
